A study of Mus musculus with 15 samples.

Results

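The 10 genes described here write, read or erase methylation of cytosine in DNA. They are Dnmt1, Dnmt3a, Dnmt3b, Uhrf1, Uhrf2, Tet1, Tet2, Tet3, Mbd2 and Zfp57, taken by symbol from a list and not by their values. All 10 were found among the 55487 genes of the deposited gene tables. All 10 also passed the filter on low counts.

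In mammals DNA methylation sits mainly on cytosines that precede a guanine, called CpG sites, and both strands of a site usually carry it. Copying the DNA leaves each site methylated on the old strand only. UHRF1 binds such hemimethylated sites and brings in DNMT1, which methylates the new strand, while DNMT3A and DNMT3B put methylation on sites that had none. TET1, TET2 and TET3 oxidise methylcytosine as the first step of its removal, MBD2 binds methylated CpG sites as part of the NuRD deacetylase complex, and ZFP57 is a KRAB zinc finger protein that keeps methylation at imprinting control regions. Fibroblasts that divide in culture need the maintenance arm at every S phase.

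PolyA RNA was sequenced from cells labelled TTF (tail-tip fibroblasts in common use) of female C57BL6/CAST hybrid mice. The KO group had the SIRT7-KO genotype and consisted of 3 libraries with the numbers 2, 9 and 22, and the WT group consisted of 3 wild-type libraries numbered 1, 2 and 3. SIRT7 is a nuclear protein deacylase of the sirtuin family. The numbers 2, 9 and 22 match the names of 3 KO lines, and an earlier set of KO libraries carries no line number, so which of the 2 sets these columns hold cannot be told apart. The sources used here give neither the deleted part of Sirt7 nor whether the WT libraries came from separate animals or cultures, so the p-values measure the spread between these libraries, which may be technical in WT and between lines in KO. A further 9 libraries that the labels list were not analysed here.

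Total counts over genes lay between 61065582 and 61506413 per library. The biological coefficient of variation, edgeR's measure of the spread between replicates, was 0.379 in KO and 0.136 in WT. Sirt7 had 512, 694 and 787 counts in KO 2, 9 and 22, against 833, 1107 and 598 in WT 1, 2 and 3, with overlap (log2 fold change -0.31, adjusted p = 0.515, edgeR). Counts given to Sirt7-201, a coding transcript of 10 exons, were 2, 0 and 0 in KO, against 53, 58 and 159 in WT, and did not pass the test over transcripts (adjusted p = 0.118, edgeR). Those of Sirt7-207, the other coding transcript with counts, were 60, 129 and 0 in KO, against 118, 11 and 68 in WT, with overlap. Summed levels of 10 fibroblast markers lay between 26018 and 34573 counts per 1e+06 gene counts (CPM) in KO and between 15753 and 16004 CPM in WT. Col1a1, Col1a2 and Col3a1 were called higher in KO and the other 7 did not pass; the number called was 6 without KO 22, 5 with DESeq2 and 0 without any one WT library. Not all markers lay higher: Thy1 had 21.6, 0.195 and 71.5 CPM in KO 2, 9 and 22, against 101.04, 98.6 and 98.9 CPM in WT 1, 2 and 3, lower in every KO library. Pdgfra had 9.46, 11.4 and 81.3 CPM in KO, against 68.6, 76.04 and 73.5 CPM in WT, low in KO 2 and KO 9. Dcn was low in KO 9 alone, with 194.4, 16.4 and 144.9 CPM in KO, against 132.2, 117.6 and 127.4 CPM in WT. Markers of keratinocytes, endothelium, immune cells, cartilage, adipocytes, and melanocytes with Schwann cells summed to at most 40.0 CPM per list in any library. Of 8 pluripotent stem cell markers, 7 including Pou5f1 were at 0 in all 6 libraries. In skeletal muscle markers the sum was 112, 78.7 and 49.3 CPM in KO against 21.7, 18.1 and 18.7 CPM in WT, nearly all of it Acta1, and Myod1, Myog and Pax7 were at 0. The part of these markers in the results below was not tested. In bulk RNA, fewer cells that express a gene and less RNA per cell cannot be told apart.

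The maintenance genes were the most abundant members per length of transcript in both groups. Levels between genes were compared as CPM per kilobase, the sum over a gene's transcripts of CPM divided by transcript length. In KO the order of mean levels was Dnmt1 at 74.2 ± 15.1, Uhrf1 at 57.4 ± 11.6, Mbd2 at 45.3 ± 7.17 and Uhrf2 at 37.5 ± 4.96 CPM per kilobase (SD, n = 3), and each neighbouring pair of these overlapped. In WT the order was Uhrf1 at 94.1 ± 1.85, Dnmt1 at 86.7 ± 4.50, Uhrf2 at 46.8 ± 1.42 and Mbd2 at 44.1 ± 1.40 CPM per kilobase, and only Uhrf2 and Mbd2 overlapped. Uhrf1 thus stood above Dnmt1 in every WT library and below Dnmt1 in every KO library. The ratio of Uhrf1 to Dnmt1 per length was 0.841, 0.851 and 0.652 in KO 2, 9 and 22, against 1.04, 1.11 and 1.11 in WT 1, 2 and 3 (two-sided exact permutation test, p = 0.1, the smallest that 3 against 3 libraries can give).

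The other members were lower by far. Tet3 averaged 5.997 ± 0.539 CPM per kilobase in KO and 5.38 ± 0.0755 in WT, and Dnmt3a 5.24 ± 0.911 in KO and 4.54 ± 0.649 in WT. Below them in KO came Zfp57 at 3.76 ± 1.06, Tet2 at 1.90 ± 0.242, Dnmt3b at 1.38 ± 0.140 and Tet1 at 1.25 ± 0.475. With length taken as the union of a gene's exons, Tet2 was at 0.623 and Dnmt3b at 0.947 in KO, so that this pair changed places. In WT the last places were held by Tet2 at 2.61 ± 0.321, Dnmt3b at 1.74 ± 0.215, Zfp57 at 1.31 ± 0.0901 and Tet1 at 0.327 ± 0.153. By the sum over transcripts, Zfp57 was above Tet2 and Dnmt3b in every KO library and below both in every WT library. With the union of exons the group means kept this order, with Zfp57 at 1.39 in KO and 0.446 in WT. In KO 22, however, Zfp57 then lay below both genes. Neighbours that overlapped in this lower part were Tet3 and Dnmt3a, Dnmt3a and Zfp57, and Dnmt3b and Tet1, all in KO, while none overlapped in WT.

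**Figure D1:**
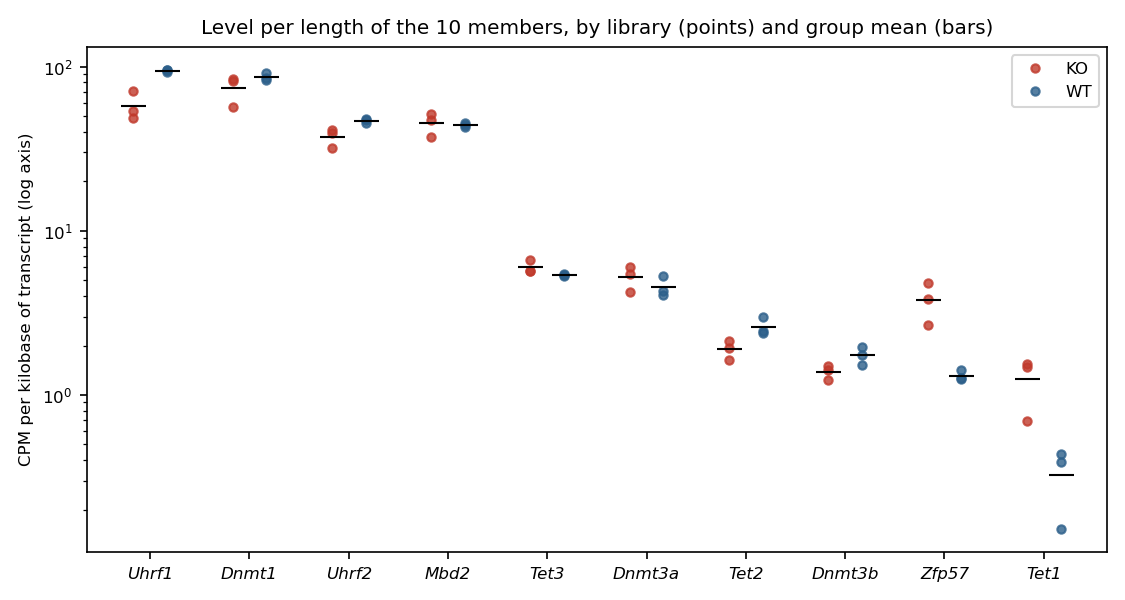
Level of each gene in CPM per kilobase of transcript on a log axis, with KO libraries left of WT libraries, points for single libraries and black bars for the mean of each group (n = 3). Uhrf1 and Dnmt1 lead in both groups, with Uhrf1 at 57.4 in KO and 94.1 in WT, and Zfp57 and Tet1 are the genes whose KO points lie farthest above their WT points.

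Between the groups, 2 of the 10 genes passed the test on gene counts (edgeR's quasi-likelihood test with Benjamini-Hochberg adjustment over 16678 genes, adjusted p under 0.05). Uhrf1 fell and Zfp57 rose in KO. Over all genes tested that rule called 6.73%, with 3.54% higher and 3.19% lower in KO. For 6 members the groups did not overlap, with Tet1, Tet3 and Zfp57 higher in KO and Dnmt3b, Uhrf1 and Uhrf2 lower in KO. Groups did not overlap for 35.9% of all genes tested, 15.7% higher and 20.2% lower in KO. The median log2 fold change was 0.01 over the 10 genes and 0.02 over all genes tested. The SD of CPM was larger in KO than in WT for 9 of the 10, all but Dnmt3b.

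**Figure D2:**
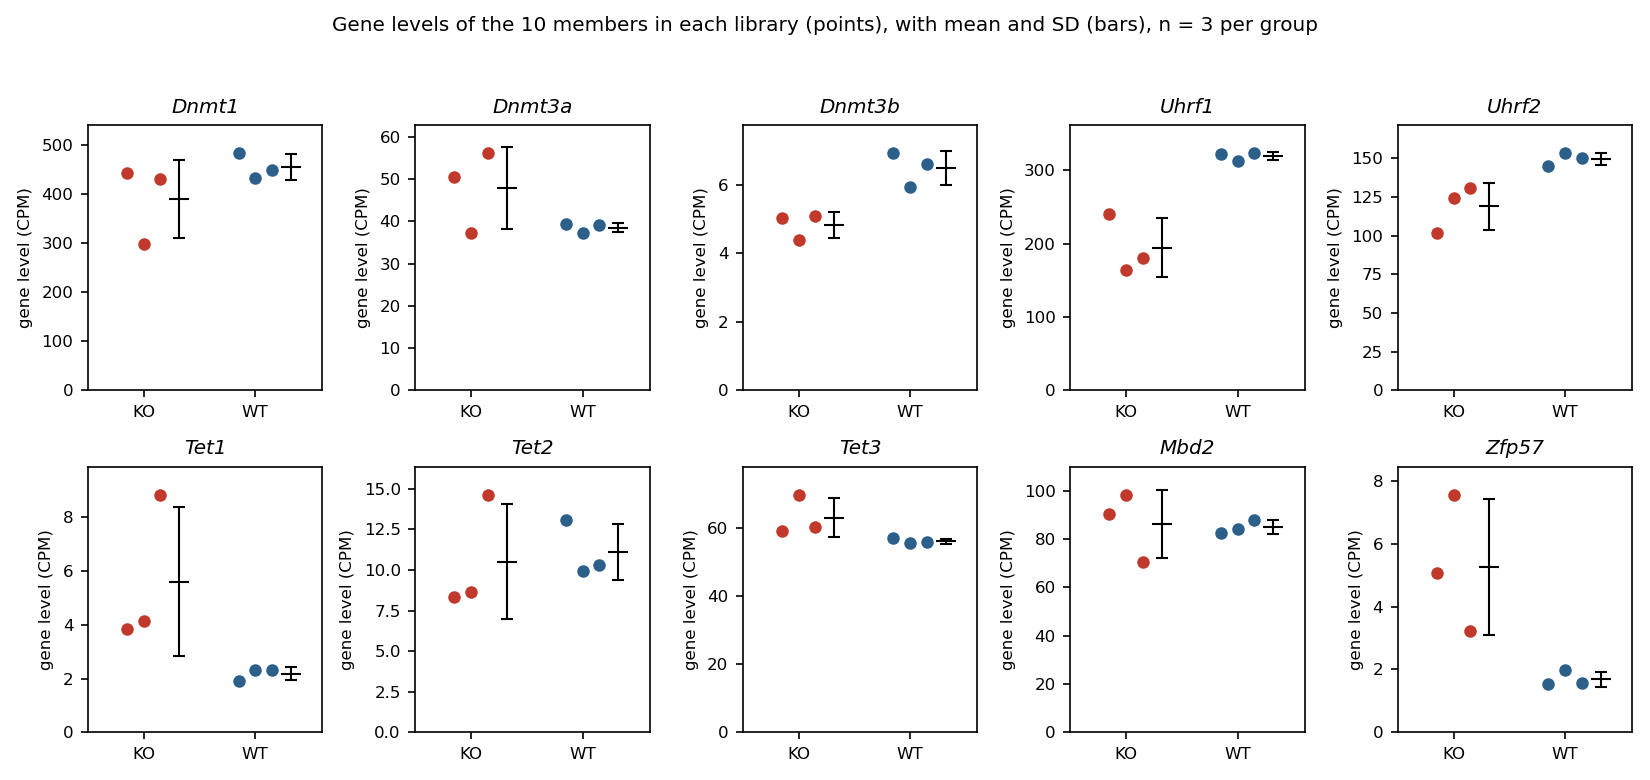
Gene level in CPM for each of the 10 genes, with 1 panel per gene, an axis from 0, points for single libraries and bars for mean and SD (n = 3 per group, KO left of WT). The KO points of Uhrf1 lie at 164 to 241 CPM, all below the WT points, and those of Zfp57 at 3.22 to 7.53 CPM, all above the WT points.

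Uhrf1 fell in KO. It had 241, 164 and 180 CPM in KO 2, 9 and 22, against 322, 313 and 323 CPM in WT 1, 2 and 3. Every KO library was below every WT library, and the WT values lay close together. The log2 fold change was -0.68 with a standard error (SE) of 0.14 (adjusted p = 0.0444, edgeR). The call was lost when a chromosome-wide median was taken out (log2 fold change -0.40, adjusted p = 0.0577, edgeR), where 5.3% of genes were called, and also without KO 9, without KO 22 and without each WT library, at adjusted p between 0.0560 and 0.187. The median of the other tested genes on chromosome 17 was -0.29 on the log2 scale.

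Both copies of Uhrf1 were lower in KO. The cells are hybrids, and part of the reads of each gene was assigned by base differences to genome 1 or genome 2; these allele counts are given per 1e+06 gene counts as allele CPM. Genome 1 of Uhrf1 gave 53.7, 25.5 and 39.3 allele CPM in KO 2, 9 and 22, against 82.0, 79.7 and 81.9 in WT 1, 2 and 3. Genome 2 gave 48.2, 42.7 and 31.3 allele CPM in KO, against 63.1, 56.0 and 58.2 in WT. The groups did not overlap for either genome. Over the other genes of chromosome 17, summed counts of genome 1 in KO 2, 9 and 22 were 0.788, 0.417 and 0.679 times the WT mean, where genome 1 of Uhrf1 was at 0.661, 0.314 and 0.484 times. Summed counts of genome 2 on that chromosome were 0.931, 1.03 and 0.874 times the WT mean in KO 2, 9 and 22, where genome 2 of Uhrf1 was at 0.816, 0.723 and 0.531 times. The rest of the chromosome was thus lower in KO in genome 1 too, and the part of that in the fall of Uhrf1 was not tested.

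Uhrf1 was also lower in KO relative to replication and mitosis genes. Uhrf1 is known to be made mainly in cells that enter S phase, so it was expressed as a share of the summed CPM of 24 S phase and mitosis genes. It was 4.63%, 3.63% and 3.81% of that sum in KO 2, 9 and 22, against 5.82%, 5.73% and 5.96% in WT 1, 2 and 3 (two-sided exact permutation test, p = 0.1, the smallest possible). Dnmt1 was 8.07% ± 1.29 of the sum in KO and 8.30% ± 0.411 in WT (SD, n = 3), with overlap. The sum itself was 5193, 4501 and 4727 CPM in KO, against 5525, 5455 and 5423 CPM in WT, lower in every KO library.

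Uhrf1 is transcribed from a pair of start sites about a kilobase apart, and transcripts from both were abundant. Transcripts of the upstream start, mainly Uhrf1-203, held 50.2%, 42.6% and 44.6% of Uhrf1 transcript counts in KO 2, 9 and 22, against 51.4%, 50.6% and 48.5% in WT 1, 2 and 3, with overlap. Transcripts of the downstream start, mainly Uhrf1-204, held 49.5%, 56.9% and 55.0% in KO, against 48.2%, 48.9% and 51.2% in WT. Uhrf1-203 averaged 75.9 ± 17.8 CPM in KO and 148.2 ± 3.52 CPM in WT, and Uhrf1-204 averaged 87.6 ± 8.48 CPM in KO and 148.5 ± 6.84 CPM in WT (SD, n = 3). Neither passed the test over 44821 transcripts (adjusted p = 0.153 and 0.0841, edgeR). Uhrf1-202, a less abundant coding transcript of the downstream start, went the other way without passing (adjusted p = 0.373, edgeR). It had 1398, 852 and 704 counts in KO 2, 9 and 22, against 599, 556 and 550 in WT 1, 2 and 3. Uhrf1-201, of the upstream start, overlapped between the groups. The RefSeq promoter windows (GRCm38.p6, plus strand, 250 bases before to 50 bases after the start) are shown because the starts they stand for share the gene's output and the windows differ in CpG content, with CpG sites in capitals. They are laid around the RefSeq starts at 56303337 and 56304313; Uhrf1-203 starts at 56303400, beyond the end of the upstream window, and Uhrf1-204 at 56304348. The upstream window, chr17:56303087-56303386, holds 12 CpG sites and the downstream window, chr17:56304063-56304362, holds 33, against a median of 7 over the 32851 windows of the same table.
Uhrf1 upstream start: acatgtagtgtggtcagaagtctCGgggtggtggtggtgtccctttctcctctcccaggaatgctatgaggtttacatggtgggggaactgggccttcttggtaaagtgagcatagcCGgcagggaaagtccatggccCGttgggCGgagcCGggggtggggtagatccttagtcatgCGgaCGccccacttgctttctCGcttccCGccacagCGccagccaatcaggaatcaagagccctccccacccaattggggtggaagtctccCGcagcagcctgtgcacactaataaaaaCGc
Uhrf1 downstream start: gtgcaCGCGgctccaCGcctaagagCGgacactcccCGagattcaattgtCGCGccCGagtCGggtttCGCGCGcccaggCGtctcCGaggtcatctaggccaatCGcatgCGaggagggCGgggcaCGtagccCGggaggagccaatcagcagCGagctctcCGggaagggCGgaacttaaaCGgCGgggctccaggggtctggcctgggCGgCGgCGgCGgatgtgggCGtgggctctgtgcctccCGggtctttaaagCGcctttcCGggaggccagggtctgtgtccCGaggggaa

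The 4 words TTTCCCGC, TTTCGCGC, TTTGCCGC and TTTGGCGC, letters bound by E2F factors that act at S phase genes, were searched on both strands, and overlapping matches were kept. TTTCGCGC was found in the downstream window of Uhrf1 at base -185 from the start, and no word in the upstream window. Of all windows 2.26% held at least 1 of these words. Among 16 windows for 9 of the genes, 2 held one, the other belonging to Dnmt1. No window of Mbd2 was among the 16, so nothing is said on words at its start.

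Uhrf2, a paralog of Uhrf1 that also binds modified cytosine, did not pass the test. It had 102, 125 and 131 CPM in KO 2, 9 and 22, against 145, 153 and 150 CPM in WT 1, 2 and 3. Every KO library was below every WT library, with a log2 fold change of -0.30 (SE 0.12, adjusted p = 0.182, edgeR). The median of the other genes on chromosome 19 was -0.21, and that of the 57 tested genes within 5 Mb of Uhrf2 was 0.01. Transcripts of a single start cluster held 96.1% to 96.5% of Uhrf2 transcript counts in all 6 libraries.

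Dnmt1, the maintenance methyltransferase, overlapped between the groups. It had 442, 298 and 429 CPM in KO 2, 9 and 22, against 482, 431 and 449 CPM in WT 1, 2 and 3. KO 9 was low and the other KO libraries were close to WT. The log2 fold change was -0.19 with an SE of 0.16 (adjusted p = 0.506, edgeR), where the other genes of chromosome 9 had a median of 0.18. As a share of the level per length of all 3 writers, Dnmt1 took 91.7% ± 0.589 in KO and 93.3% ± 0.517 in WT (SD, n = 3).

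Dnmt1 came from its somatic start cluster. Transcripts that start between 20952605 and 20952979 on chromosome 9, minus strand, held 99.0% to 99.5% of its transcript counts in all 6 libraries. Most of these were Dnmt1-201, with 374.2 ± 73.7 CPM in KO and 443.1 ± 25.9 CPM in WT. Dnmt1-202, which starts upstream at 20959888, had 0 counts in each library; oocytes are known to use a first exon upstream of the somatic one. Both RefSeq windows (GRCm38.p6, minus strand) are shown to set the start that gave nearly all counts beside the start that gave none. The window of the Dnmt1-201 start, chr9:20952930-20953229, holds 12 CpG sites, and that of the upstream start, chr9:20959839-20960138, holds 2, written in capitals.
Dnmt1 start of Dnmt1-201: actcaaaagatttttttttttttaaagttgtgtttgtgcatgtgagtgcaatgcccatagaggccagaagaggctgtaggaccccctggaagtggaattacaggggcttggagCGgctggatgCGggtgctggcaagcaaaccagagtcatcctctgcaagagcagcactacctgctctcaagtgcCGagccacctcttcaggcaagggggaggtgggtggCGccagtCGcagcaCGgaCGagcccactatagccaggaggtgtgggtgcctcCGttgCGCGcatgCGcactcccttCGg
Dnmt1 upstream start: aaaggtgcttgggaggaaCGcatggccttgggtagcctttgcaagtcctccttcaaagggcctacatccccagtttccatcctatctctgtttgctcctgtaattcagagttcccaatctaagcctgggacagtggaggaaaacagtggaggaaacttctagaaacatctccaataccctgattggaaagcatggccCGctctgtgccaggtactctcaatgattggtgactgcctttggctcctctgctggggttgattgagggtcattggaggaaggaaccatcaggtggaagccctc

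Another Dnmt1 window, around the start of Dnmt1-203 at 20952623, holds 33 CpG sites, with TTTGGCGC at base 34 after the start and GCGCGAAA, the reverse complement of TTTCGCGC, at base -219. Dnmt1-203 had 410, 299 and 943 counts in KO 2, 9 and 22, against 511, 483 and 445 in WT 1, 2 and 3. The Dnmt1-207 transcript, which starts nearby, had 722 counts in KO 22 and 0 elsewhere. Counts per transcript are estimates, and a gene with overlapping isoforms can be divided differently from library to library.

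Neither writer of new methylation passed the test. Dnmt3a had 50.5, 37.2 and 56.0 CPM in KO 2, 9 and 22, against 39.2, 37.2 and 39.2 CPM in WT 1, 2 and 3. KO 2 and KO 22 were above WT, and KO 9 was level with it. The log2 fold change was 0.35 with an SE of 0.16 (adjusted p = 0.240, edgeR). Without KO 9 it was 0.50 and passed (adjusted p = 0.0458, edgeR), where 7.37% of genes did. Per length, Dnmt3a took 6.52% ± 0.412 of the level of the 3 writers in KO and 4.87% ± 0.409 in WT, higher in every KO library (two-sided exact permutation test, p = 0.1, the smallest possible).

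Dnmt3a counts came from the start of its long form. Transcripts starting between 3807030 and 3807160 on chromosome 12, plus strand, held 97.3% to 99.6% of its transcript counts. Dnmt3a-203 and Dnmt3a-205, which start inside the gene at 3891744 and 3891728, had 0 counts in all 6 libraries; the shorter form DNMT3A2, known from germ cells and embryonic stem cells, starts at an internal promoter. Nearly all of the counts were given to Dnmt3a-201, which starts at 3807030 and had 3059, 2257 and 3415 counts in KO 2, 9 and 22, against 2330, 2270 and 2395 in WT 1, 2 and 3. A RefSeq window that covers that start is shown beside the internal one because transcripts of the internal start had none of these counts. The first window (GRCm38.p6, plus strand), chr12:3806910-3807209, is laid around another start of the cluster, at 3807160, whose transcript Dnmt3a-218 had at most 2 counts in any library; it holds 47 CpG sites. The internal window, chr12:3891494-3891793, around the start of Dnmt3a-203, holds 18, and CpG sites are in capitals.
Dnmt3a window over the start of Dnmt3a-201: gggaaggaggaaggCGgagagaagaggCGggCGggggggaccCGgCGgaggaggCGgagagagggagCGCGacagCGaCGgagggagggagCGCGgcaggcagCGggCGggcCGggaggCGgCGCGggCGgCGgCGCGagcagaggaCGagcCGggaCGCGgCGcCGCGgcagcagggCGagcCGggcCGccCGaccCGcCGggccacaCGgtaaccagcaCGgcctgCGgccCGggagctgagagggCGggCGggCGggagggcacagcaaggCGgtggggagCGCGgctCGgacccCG
Dnmt3a internal start: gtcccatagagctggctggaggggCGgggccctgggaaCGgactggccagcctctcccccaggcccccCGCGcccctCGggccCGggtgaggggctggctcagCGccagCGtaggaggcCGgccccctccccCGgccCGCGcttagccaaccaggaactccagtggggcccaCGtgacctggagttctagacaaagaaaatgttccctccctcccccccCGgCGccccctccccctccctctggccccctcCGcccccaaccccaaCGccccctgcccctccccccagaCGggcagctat

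Dnmt3b, the other writer of new methylation, had 5.03, 4.39 and 5.08 CPM in KO 2, 9 and 22, against 6.91, 5.93 and 6.60 CPM in WT 1, 2 and 3. All KO values were below all WT values. The log2 fold change was -0.39 with an SE of 0.16 (adjusted p = 0.185, edgeR). Which Dnmt3b isoform the counts were given to changed between replicates: Dnmt3b-210 had 0, 230 and 219 counts in KO and 0, 2 and 4 in WT, while Dnmt3b-205 had 0 counts in KO and 98, 352 and 8 in WT. No statement on Dnmt3b isoforms was made from these counts.

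Among the erasers, Tet1 moved farthest without passing the test. It had 3.85, 4.15 and 8.79 CPM in KO 2, 9 and 22, against 1.90, 2.31 and 2.31 CPM in WT 1, 2 and 3. Each KO library was above each WT library, with KO 22 the highest. The log2 fold change was 1.40 with an SE of 0.37 (adjusted p = 0.0712, edgeR). It passed with DESeq2 (adjusted p = 0.00282), which called 15.9% of genes tested, and with limma-voom with a weight per group (adjusted p = 0.0489), which called 7.73%. Without KO 22 it was 0.89 and passed (adjusted p = 0.0317, edgeR), where 14.5% of genes did.

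Tet1 counts belonged mainly to Tet1-206, a 13-exon coding transcript that starts at 62899118 on chromosome 10, minus strand. It had 200, 167 and 464 counts in KO 2, 9 and 22, against 113, 132 and 132 in WT 1, 2 and 3, higher in every KO library (log2 fold change 1.19, SE 0.45, adjusted p = 0.402, edgeR). Tet1-202, a noncoding processed transcript that starts inside the gene at 62865304, had 28, 48 and 54 counts in KO, against 2, 1 and 0 in WT. These groups did not overlap, at a log2 fold change of 5.31 (SE 0.79, adjusted p = 0.0894, edgeR); with so few WT counts this value depends on the prior count of the fit. Tet1-201, another long coding transcript, had at most 2 counts in any library.

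Tet2 overlapped between the groups. It had 8.33, 8.62 and 14.6 CPM in KO 2, 9 and 22, against 13.1, 9.92 and 10.3 CPM in WT 1, 2 and 3, with a log2 fold change of -0.04 (SE 0.27, adjusted p = 0.940, edgeR). KO 22 was the highest of all 6 libraries. Coding transcripts and retained-intron fragments of Tet2 shared the counts unevenly: transcripts of its main start held 89.8%, 31.5% and 94.96% in KO 2, 9 and 22, against 72.8%, 39.2% and 78.4% in WT 1, 2 and 3. Because these differ in length, the level of Tet2 per kilobase is less certain than its gene level.

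Tet3, the most abundant eraser, had 59.3, 69.7 and 60.4 CPM in KO 2, 9 and 22, against 57.1, 55.5 and 55.8 CPM in WT 1, 2 and 3. All KO values lay above all WT values. The difference was small, a log2 fold change of 0.20 (SE 0.10, adjusted p = 0.251, edgeR). Tet3-202 held most of its counts, with 60.5 ± 5.48 CPM in KO and 53.1 ± 1.03 CPM in WT (SD, n = 3). Of the level per length of the 3 erasers, Tet3 took 65.8% ± 4.39 in KO and 64.8% ± 1.08 in WT, and Tet1 13.4% ± 4.18 in KO and 3.96% ± 1.91 in WT. Short transcripts such as Tet1-202, of 1505 bases, weigh heavily in this measure, so these shares depend on how length is taken. With the union of exons, KO means were 3.78 for Tet3, 0.623 for Tet2 and 0.362 CPM per kilobase for Tet1. The WT means were 3.36, 0.658 and 0.141 in the same order.

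Mbd2, the reader, did not pass the test. It had 90.3, 98.1 and 70.7 CPM in KO 2, 9 and 22, against 82.6, 84.4 and 88.0 CPM in WT 1, 2 and 3. KO libraries lay on both sides of WT. The log2 fold change was 0.05 with an SE of 0.13 (adjusted p = 0.831, edgeR). Transcripts of its main start held 98.2% to 99.4% of its transcript counts.

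Zfp57 rose in KO and was among the less abundant genes of the list in both groups. It had 5.06, 7.53 and 3.22 CPM in KO 2, 9 and 22, against 1.54, 1.97 and 1.56 CPM in WT 1, 2 and 3. Each KO library was above each WT library, and the KO libraries differed among themselves by more than the WT libraries did. The mean was 5.27 ± 2.16 CPM in KO and 1.69 ± 0.243 CPM in WT (SD, n = 3), a 3.12-fold difference, with a log2 fold change of 1.67 (SE 0.33, adjusted p = 0.0387, edgeR). The call was lost without KO 2 (adjusted p = 0.0549, edgeR) and without each WT library (adjusted p between 0.150 and 0.181). The gene lies on chromosome 17, as Uhrf1 does, where the median of other genes was -0.29.

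Zfp57 counts were spread over several starts in both groups. Transcripts starting between 37002482 and 37003038 on chromosome 17, plus strand, had 156, 294 and 101 counts in KO 2, 9 and 22, against 32, 79 and 70 in WT 1, 2 and 3. Zfp57-212, which starts at 37003666, had 106, 115 and 66 counts in KO, against 51, 26 and 17 in WT. Zfp57-202, which starts farthest upstream at 37001163, had 19, 39 and 22 counts in KO, against 3, 7 and 0 in WT. All 3 were higher in every KO library, and no single Zfp57 transcript passed the test. The RefSeq window of the start at 37002525 (chr17:37002275-37002574, GRCm38.p6, plus strand) is shown as that of the cluster with the most counts; it holds 9 CpG sites, in capitals, and the windows of the other 2 starts hold 6 and 4.
Zfp57 start at 37002525: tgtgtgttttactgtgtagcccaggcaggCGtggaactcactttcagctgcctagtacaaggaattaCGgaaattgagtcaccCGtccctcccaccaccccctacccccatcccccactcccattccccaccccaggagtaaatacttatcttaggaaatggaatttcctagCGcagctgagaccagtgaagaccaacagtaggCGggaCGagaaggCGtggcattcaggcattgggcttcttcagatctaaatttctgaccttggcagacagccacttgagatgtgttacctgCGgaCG

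Over all transcripts of the 10 genes, 96 are annotated, 75 had a count in some library and 37 were tested. None was called (edgeR), where 0.335% of all 44821 transcripts tested were. With limma-voom 0 of the 37 were called, and 0.245% of all transcripts tested. At an unadjusted p under 0.05 there were 9 of the 37 with edgeR, or 24.3%, against 11.8% of all transcripts tested, and 8 with limma-voom, or 21.6%, against 12.9%. Genes that overlap the members in the annotation had few counts of their own: B230319C09Rik, on the strand opposite Tet3, had 12 to 18 in KO and 19 to 26 in WT, and Dnmt3bos at most 4. The sources used here do not say whether reads were counted by strand.

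**Figure D3:**
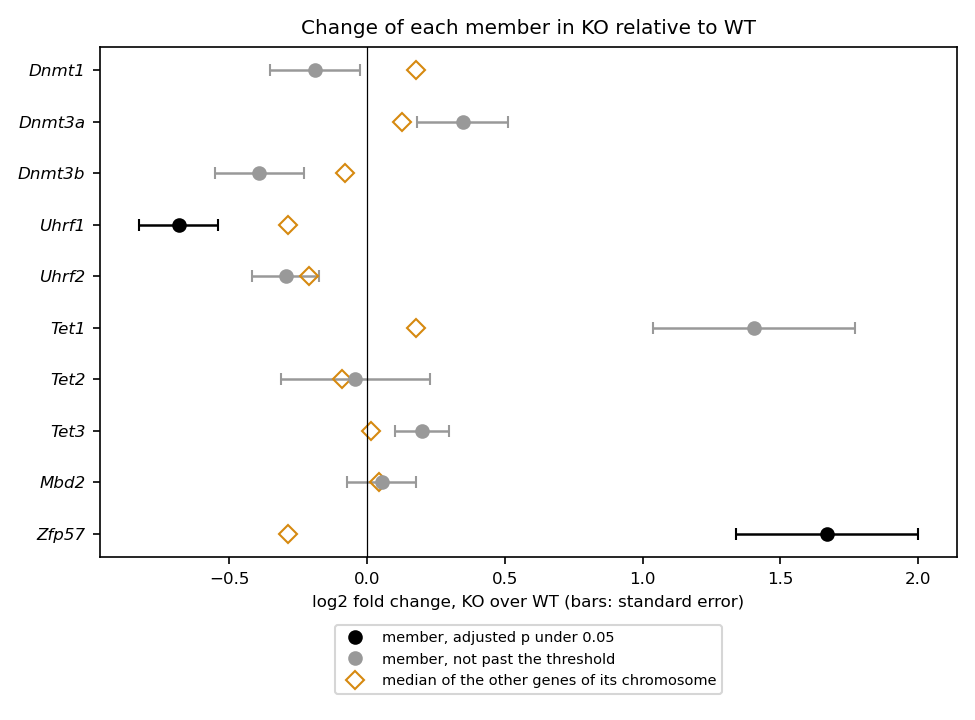
Log2 fold change of KO over WT for each gene (circles, bars for the standard error, black where adjusted p is under 0.05), with the median of the other tested genes of its chromosome (open diamonds). Uhrf1 at -0.68 and Zfp57 at 1.67 passed, and both lie on chromosome 17, whose median was -0.29.

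The sources used here do not name the strain that genome 1 stands for. Allele counts of a member were between 9.07% and 65.8% of its gene counts, with a mean per library of 33.2 for Zfp57 and 14950.2 for Dnmt1. The ratio of genome 1 to genome 2 differed between KO and WT for 3 of the 10 genes (quasi-likelihood test of edgeR in which each library has its own term, Benjamini-Hochberg adjustment). Over all 12984 genes tested 23% were called, 11.3% with a higher and 11.7% with a lower genome 1 ratio in KO. Tet2 and Tet3 had a higher ratio in KO, and Uhrf2 a lower one.

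Tet3 shifted most. Genome 1 made up 68.6%, 72.7% and 71.4% of its allele counts in KO 2, 9 and 22, against 40.9%, 39.5% and 39.8% in WT 1, 2 and 3. The groups lay far apart, and the log2 change of the ratio was 1.87 (SE 0.15, adjusted p = 0.00144, edgeR). Genome 1 gave 21.7 ± 2.69 allele CPM in KO and 10.8 ± 0.293 in WT, and genome 2 gave 8.87 ± 0.587 in KO and 16.1 ± 0.867 in WT (SD, n = 3). The copies moved in opposite directions while the total of the gene changed little. The other genes of chromosome 6 had a genome 1 share of 61.6%, 63.3% and 61.4% in KO, against 36.0%, 36.0% and 36.2% in WT.

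Uhrf2 shifted the other way. Its genome 1 share was 53.2%, 53.9% and 50.3% in KO 2, 9 and 22, against 74.6%, 72.9% and 72.6% in WT 1, 2 and 3. Groups did not overlap, with a log2 change of the ratio of -1.32 (SE 0.14, adjusted p = 0.00201, edgeR). Genome 1 gave 17.2 ± 2.33 allele CPM in KO and 30.8 ± 0.827 in WT, and genome 2 gave 15.7 ± 2.86 in KO and 11.2 ± 0.535 in WT. The rest of chromosome 19 had a share of 49.7%, 50.03% and 48.0% in KO, against 69.6%, 68.8% and 70.0% in WT.

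Tet2 had a genome 1 share of 68.1%, 66.5% and 79.3% in KO 2, 9 and 22, against 49.0%, 46.8% and 54.7% in WT 1, 2 and 3. All KO shares were higher than all WT shares, and the log2 change of the ratio was 1.33 (SE 0.33, adjusted p = 0.0331, edgeR). Its genome 2 counts were lower in every KO library, at 1.69 ± 0.207 allele CPM in KO and 3.300 ± 0.347 in WT. The rest of chromosome 3 stood at 68.9%, 66.0% and 73.0% in KO, against 52.7%, 53.1% and 53.1% in WT. The call for Tet2 was lost without KO 2 and without each WT library (adjusted p between 0.0538 and 0.120, edgeR).

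**Figure D4:**
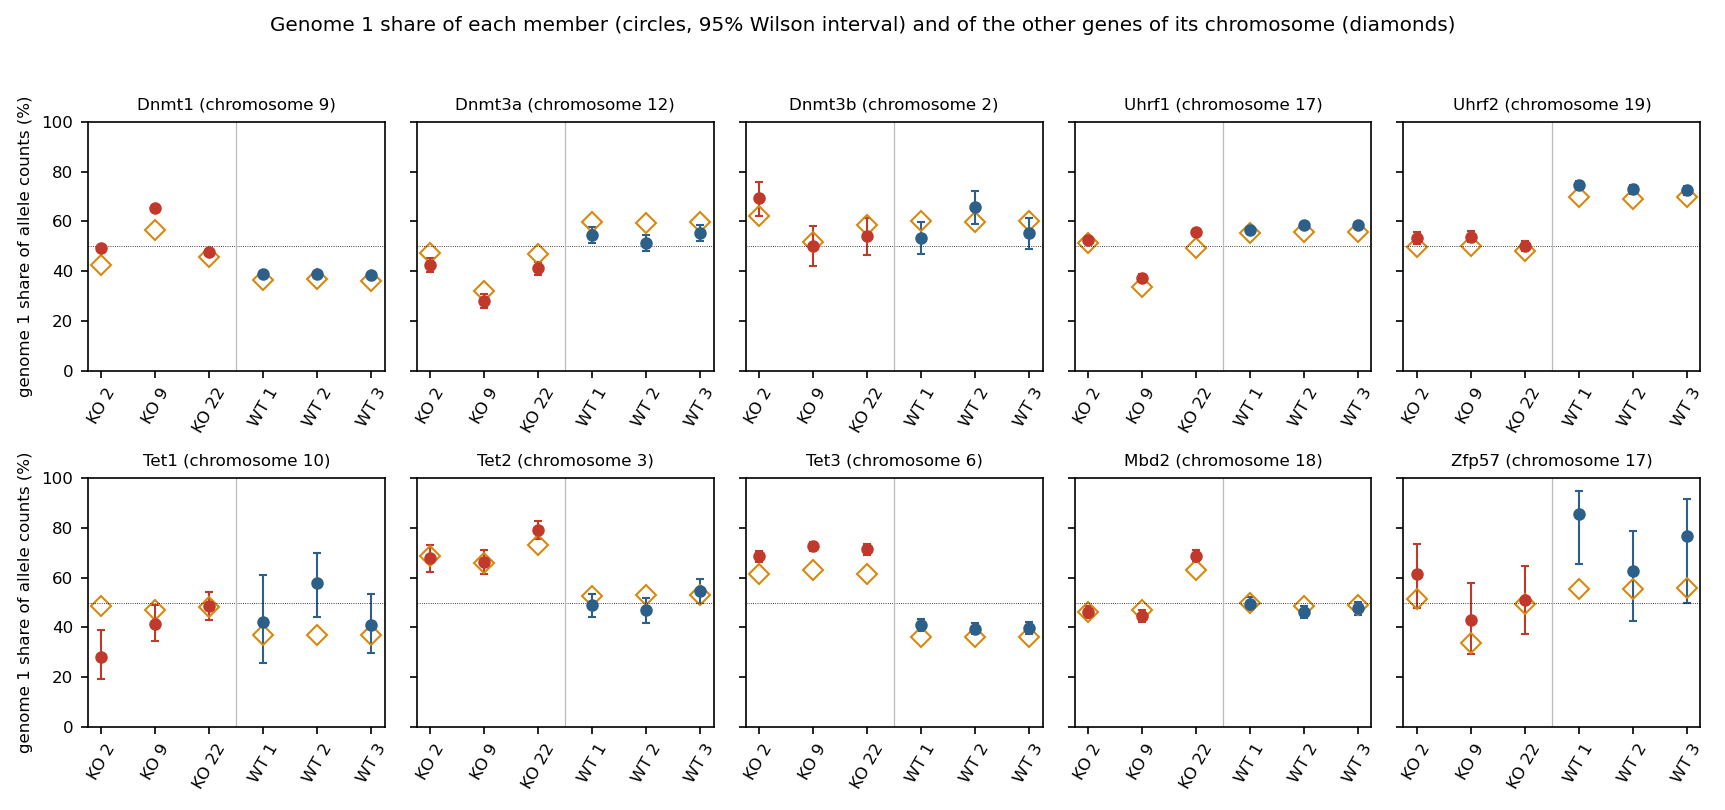
Genome 1 share of the allele counts of each gene in percent (circles with 95% Wilson intervals, KO libraries red and left of the blue WT libraries) and of the other genes of the same chromosome (open diamonds). Circles and diamonds stay close in most panels. Tet3 lies at 68.6% to 72.7% in KO and at 39.5% to 40.9% in WT. In each library the widest interval is that of Zfp57 or Tet1.

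Dnmt1 and Dnmt3a were displaced in every KO library, and farthest in KO 9. The share of Dnmt1 was 49.2%, 65.3% and 47.8% in KO 2, 9 and 22, against 38.9%, 39.0% and 38.5% in WT 1, 2 and 3, with KO 9 standing apart. In KO 9 genome 2 of Dnmt1 gave 59.9 allele CPM, 0.372 times the WT mean of 161.1, while genome 1 gave 1.103 times its WT mean. The remaining genes of chromosome 9 had a share of 42.4%, 56.7% and 45.8% in KO, against 36.6%, 36.8% and 36.3% in WT, also with KO 9 apart. KO 9 is the library with the low Dnmt1 level. The change of the ratio, 0.90 on the log2 scale, did not pass (adjusted p = 0.0756, edgeR); without KO 9 it was 0.57 and passed (adjusted p = 0.00452, edgeR), where 29.6% of genes did.

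Dnmt3a had a genome 1 share of 42.5%, 27.9% and 41.1% in KO 2, 9 and 22, against 54.6%, 51.4% and 55.4% in WT 1, 2 and 3. Here too KO 9 was the farthest from WT. Genome 2 of Dnmt3a gave 12.3, 12.1 and 12.6 allele CPM in KO, against 6.47, 7.64 and 6.86 in WT, higher in each KO library. Genome 1 gave 9.07, 4.68 and 8.79 allele CPM in KO, against 7.78, 8.09 and 8.52 in WT, low in KO 9 alone. The ratio changed by -0.99 on the log2 scale (adjusted p = 0.0578, edgeR), and without KO 9 by -0.70 (adjusted p = 0.0206, edgeR). Chromosome 12 as a whole was at 47.2%, 32.1% and 46.9% in KO, against 59.6%, 59.2% and 59.6% in WT.

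Mbd2 was shifted in 1 KO library. Its genome 1 share was 46.3%, 44.8% and 68.8% in KO 2, 9 and 22, against 49.5%, 46.3% and 47.6% in WT 1, 2 and 3. KO 22 stood apart, with 6.34 allele CPM from genome 2 against a WT mean of 12.8, and KO 22 was also the library with the lowest Mbd2 level. Other genes of chromosome 18 had a share of 46.3%, 47.0% and 63.0% in KO, against 49.7%, 48.6% and 49.1% in WT. The ratio over all 3 KO libraries did not pass (log2 change 0.32, adjusted p = 0.633, edgeR).

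For Uhrf1 the share was 52.7%, 37.4% and 55.6% in KO 2, 9 and 22, against 56.5%, 58.7% and 58.5% in WT 1, 2 and 3, lower in each KO library and lowest in KO 9. The rest of chromosome 17 had 51.5%, 33.8% and 49.3% in KO, against 55.5%, 55.6% and 55.7% in WT, again lowest in KO 9. The ratio of Uhrf1 did not pass (log2 change -0.55, adjusted p = 0.247, edgeR). Dnmt3b overlapped between the groups, with 69.5%, 50% and 54.1% in KO, against 53.4%, 65.8% and 55.3% in WT.

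The mean shares of Tet1 and Zfp57 did not follow their chromosomes as closely. These genes had the lowest mean allele counts per library among the members, 115.3 for Tet1 and 33.2 for Zfp57. The part of counting error in these departures was not tested beyond the intervals given here. The 95% Wilson interval of Zfp57 covered the share of the rest of chromosome 17 in every library but WT 1. That of Tet1 covered the share of the rest of chromosome 10 in every library but KO 2 and WT 2. Tet1 had a share of 28.2%, 41.6% and 48.5% in KO 2, 9 and 22, against 42.3%, 57.7% and 41.0% in WT 1, 2 and 3, with overlap, where the rest of chromosome 10 was at 46.9% to 48.7% in KO and 36.8% to 37.1% in WT. Genome 2 of Tet1 gave 0.917, 1.58 and 2.598 allele CPM in KO, against 0.246, 0.358 and 0.585 in WT, higher in every KO library. Genome 1 of Tet1 gave 0.360, 1.122 and 2.45 allele CPM in KO, against 0.180, 0.489 and 0.406 in WT, which overlapped because KO 2 was low. Genome 2 of Zfp57 gave 0.327, 0.390 and 0.376 allele CPM in KO, against 0.0491, 0.147 and 0.0488 in WT, also without overlap. Genome 1 of Zfp57 gave 0.524, 0.293 and 0.392 allele CPM in KO, against 0.295, 0.244 and 0.163 in WT, with overlap of KO 9 and WT 1. These rest on few counts: genome 2 of Zfp57 had 20, 24 and 23 counts in KO and 3, 9 and 3 in WT. The ratio of Zfp57 did not pass (log2 change -1.46, adjusted p = 0.165, edgeR), nor did that of Tet1 (log2 change -0.44, adjusted p = 0.578, edgeR).

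Over the 10 genes, shares did not overlap between groups for 7, with 3 higher and 4 lower in KO, where 43.7% of all genes tested did not overlap, 18.4% higher and 25.3% lower. With 3 libraries against 3, each of these 7 has an exact two-sided permutation p of 0.1, the smallest possible. For 9 of the 10 the mean share moved in the same direction as the rest of the chromosome, Tet1 being the exception. Among these 9 was Dnmt3b, which changed by only -0.291 points, with overlap. Most other tested genes of these chromosomes also moved that way by the log2 change of the ratio. They ranged from 614 of 964 on chromosome 2 to 447 of 481 on chromosome 19. For 8 of the 10 the change lay within 5 percentage points of the chromosome's. For Tet1 and Zfp57, the genes with the lowest mean allele counts, it differed from the chromosome's by -18.5 and -12.5 points. The part of chromosome-wide shifts in the allele results was not tested beyond these values.

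**Figure D5:**
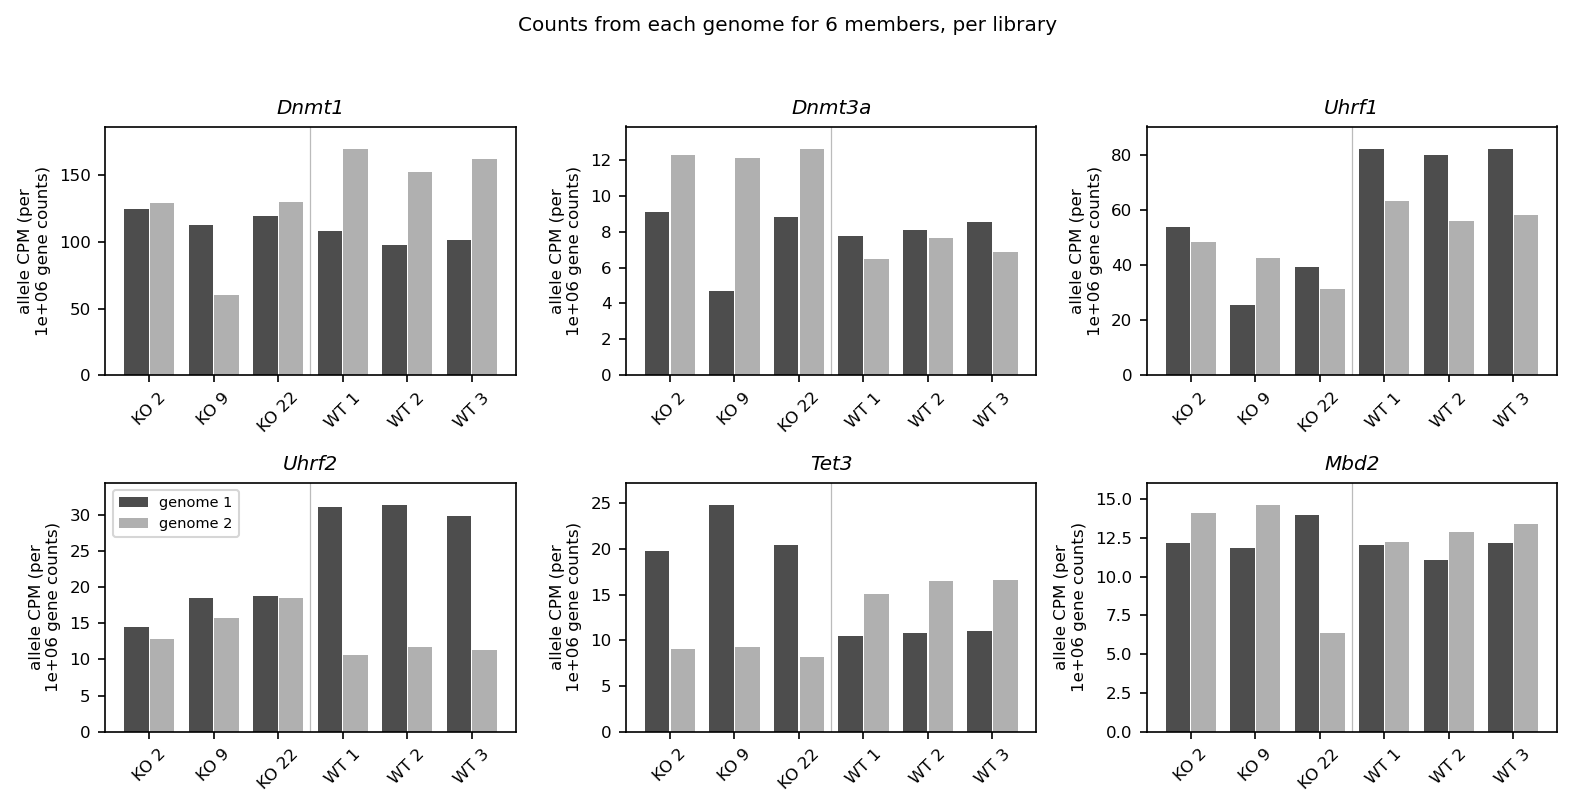
Counts assigned to genome 1 (dark bars) and genome 2 (light bars) in allele CPM for 6 of the genes, with axes from 0 and KO libraries left of WT libraries. Uhrf1 is lower in KO for both genomes, Tet3 and Uhrf2 move in opposite directions on their copies, and the low bars of single KO libraries are genome 2 of Dnmt1 in KO 9 (59.9), genome 1 of Dnmt3a in KO 9 (4.68) and genome 2 of Mbd2 in KO 22 (6.34).

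Counts of called genes in the lists that follow are small and moved with the libraries used, so they are given also where a library left out, or DESeq2, moved them by over 1.5 times. Read against them, 6.73% of all genes were called with all 6 libraries, 9.72% without KO 2, 7.37% without KO 9, 14.5% without KO 22, 15.9% with DESeq2, and 0.296%, 0.262% and 0.291% without WT 1, 2 and 3. Limma-voom called as many genes as edgeR in every list below. At an unadjusted p under 0.05 stood 26.3% of all genes tested (edgeR).

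The partners of the maintenance arm held 1 called gene, 3 without KO 2, 2 with DESeq2 and 0 without any one WT library. Of 12 listed genes, 11 were tested, and Dnmt3l alone passed, lower in KO, with a list median of -0.11 on the log2 scale. Dnmt3l, an inactive relative of the writers that aids DNMT3A in germ cells, had 0, 0 and 3 counts in KO 2, 9 and 22, against 27, 63 and 56 in WT 1, 2 and 3 (adjusted p = 0.0276, edgeR). The summed KO count was 2.06% of the WT count, with an exact 95% interval of 0.419% to 6.13% that covers counting error only. Of the others, 5 were lower in every KO library without passing, where 20.2% of all genes tested were lower in KO without overlap. Among these 5 was Hells, a remodelling ATPase needed for maintenance, at 59.1 ± 8.57 CPM in KO and 86.1 ± 4.82 CPM in WT (adjusted p = 0.0608, edgeR).

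Other genes of methyl-CpG readers and their relatives did not pass the test in any case. All 9 were tested, with 0 called by edgeR and by DESeq2, 1 at an unadjusted p under 0.05 (edgeR) and a median of 0.10. The smallest p belonged to Zbtb38, a zinc finger reader, with 15.6, 14.2 and 13.6 CPM in KO 2, 9 and 22, against 9.97, 5.18 and 11.02 CPM in WT 1, 2 and 3 (adjusted p = 0.155, edgeR). Among 11 NuRD partners of MBD2, Mta2 fell, with 232.7 ± 11.6 CPM in KO and 316.9 ± 7.14 CPM in WT (log2 fold change -0.41, SE 0.08, adjusted p = 0.0390, edgeR), and the other 10 did not pass. The median of that list was 0.02. The number called in it was 3 without KO 2, without KO 22 and with DESeq2, 2 without KO 9 and 0 without any one WT library.

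On the erasing side, 16 of 18 demethylation and repair genes were tested and 0 were called by edgeR, with a median of 0.15. DESeq2 called 2, edgeR called 1 without KO 9, and 5 had an unadjusted p under 0.05 (edgeR). Tdg, the glycosylase that removes the oxidised bases made by TET enzymes, had 65.0 ± 6.79 CPM in KO and 53.0 ± 1.71 CPM in WT, higher in every KO library (log2 fold change 0.33, adjusted p = 0.0955, edgeR). Smug1, another glycosylase, had 15.9 ± 0.698 CPM in KO and 21.4 ± 1.09 CPM in WT (adjusted p = 0.0796, edgeR). TET enzymes use alpha-ketoglutarate, and of 11 genes of its supply Idh2, the mitochondrial isocitrate dehydrogenase, rose, with 228.1 ± 15.2 CPM in KO and 176.3 ± 1.99 CPM in WT (log2 fold change 0.40, SE 0.08, adjusted p = 0.0414, edgeR). The median of that list was -0.03, and the number called was 2 without KO 2, without KO 22 and with DESeq2, and 0 without any one WT library.

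Of 8 CXXC proteins, a group that binds unmethylated CpG sites, Cxxc5 fell. It had 9.53, 15.9 and 13.4 CPM in KO 2, 9 and 22, against 29.9, 30.7 and 28.6 CPM in WT 1, 2 and 3. All KO values were below all WT values, with a log2 fold change of -1.17 (SE 0.20, adjusted p = 0.0282, edgeR). Another 4 of the 8 were lower in every KO library without passing, where 20.2% of all genes tested were lower in KO without overlap. The list median was -0.22. The number called was 2 without KO 9 and 0 without any one WT library. None of 13 genes of methyl donor supply passed with edgeR, with a median of -0.22, 3 at an unadjusted p under 0.05, 1 called by DESeq2 and 2 without KO 2. Mat2b, the regulatory subunit of methionine adenosyltransferase, had 62.6 ± 9.22 CPM in KO and 47.5 ± 4.28 CPM in WT, higher in every KO library (log2 fold change 0.43, adjusted p = 0.104, edgeR). Ahcy, which clears the product that inhibits methyltransferases, had 205.9 ± 41.7 CPM in KO and 284.6 ± 14.9 CPM in WT, lower in every KO library (adjusted p = 0.117, edgeR).

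ZFP57 works through KAP1, the product of Trim28, and through histone methylation at heterochromatin. None of 11 genes of that list passed with edgeR, with a median of -0.04, 5 at an unadjusted p under 0.05, 1 called by DESeq2 and 2 without KO 22. Suv39h2, a histone H3 lysine methyltransferase, had 10.7 ± 1.78 CPM in KO and 16.7 ± 1.13 CPM in WT (adjusted p = 0.0713, edgeR), and Cbx1, a heterochromatin protein, 115.6 ± 6.18 CPM in KO and 99.1 ± 3.27 CPM in WT (adjusted p = 0.105, edgeR). ZFP57 and DNA methylation are known to govern many imprinted genes, and of the imprinted genes listed, 24 of 35 found were tested. Whether ZFP57 or DNA methylation governs each of these genes was not tested. Sgce and Gnas rose, Slc38a4 and Dlk1 fell, 20 did not pass, and the median was -0.08. Without WT 1, 2 or 3 the number called was 2, 1 and 2. Sgce, a sarcoglycan, had 72.8 ± 14.9 CPM in KO and 41.2 ± 3.97 CPM in WT (adjusted p = 0.0394, edgeR), and Gnas, a G protein subunit, 1150.3 ± 19.7 CPM in KO and 925.3 ± 29.4 CPM in WT (adjusted p = 0.0444, edgeR). Slc38a4, an amino acid transporter, had 1.22 ± 0.406 CPM in KO and 27.4 ± 2.33 CPM in WT (adjusted p = 0.00191, edgeR). Dlk1, a Notch-like membrane protein gene, had 0 counts in every KO library, against 276, 328 and 534 counts in WT 1, 2 and 3 (adjusted p = 0.00599, edgeR).

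Most germline genes that promoter methylation is known to keep silent were at or near 0. Of 22 listed, 12 had 0 counts in all 6 libraries, among them Dazl, Sycp1 and Mael, and 3 were tested with 0 called by edgeR and by DESeq2 and 1 at an unadjusted p under 0.05 (edgeR). Taf9b, a TFIID subunit gene that fibroblasts also express, had 5.55 ± 1.63 CPM in KO and 3.72 ± 0.265 CPM in WT (adjusted p = 0.168, edgeR), and Brdt, a testis bromodomain gene, 3.68 ± 1.02 CPM in KO and 2.42 ± 0.537 CPM in WT (adjusted p = 0.229, edgeR). Summed over the list the level was 7.60, 12.6 and 11.3 CPM in KO 2, 9 and 22, against 5.93, 7.34 and 7.09 CPM in WT 1, 2 and 3. All KO sums lay above all WT sums, most of each sum being Taf9b and Brdt. Of the 24 S phase and mitosis genes, Tyms, the thymidylate synthase gene, fell, with 68.2 ± 3.66 CPM in KO and 102.0 ± 13.3 CPM in WT (log2 fold change -0.55, SE 0.12, adjusted p = 0.0449, edgeR), 23 did not pass and the median was -0.15. The number called there was 2 without KO 2, 5 without KO 22, 3 with DESeq2 and 0 without any one WT library.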

How the data were processed

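PolyA RNA of 6 libraries, 3 KO and 3 WT, was analysed. The submitters' processing notes name 2 builds, GRCm38 and mm10, and these tools without a role: StringTie 1.3.3, HISAT2 2.1.0, DESeq2 1.32.0, Trimmomatic 0.36, SAMtools 0.1.19 and FastQC 0.11.3. The sources used here do not give their settings. The deposited tables hold estimated counts by gene and by transcript, and by gene for reads split into genome 1 and genome 2; all were whole numbers and needed no rounding. Not used were 6 columns of unassigned reads and the table of split transcript counts. Columns were matched by name; the KO columns were matched to the genotype only.

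Of 55487 genes 260, and of 142699 transcripts 1230, did not match GENCODE M21 (GRCm38), which gave coordinates, lengths and chromosomes; unmatched genes held at most 0.0374% of a library's counts. CPM and allele CPM are counts per 1e+06 counts of the gene table; allele counts came to between 36.6% and 37.5% of these. Promoter windows came from the RefSeq table of GRCm38.p6. Transcript starts at most 500 bp apart were joined into 1 cluster.

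KO and WT were compared with edgeR 4.0.16 in R 4.3.3 (quasi-likelihood test, TMM scaling, default filter on low counts, Benjamini-Hochberg adjustment over all features tested, called at adjusted p under 0.05); DESeq2 1.42.0 and limma-voom (limma 3.58.1) are named where an adjusted p is theirs. An SE is the size of the log2 fold change over the root of its F statistic. Allelic ratios needed a mean of 20 allele counts per library. For single values, two-sided exact permutation tests (scipy 1.17.1) were run, and 0.1 is their smallest p here. Intervals are 95% Wilson or exact intervals and cover counting error only.

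The members, lists and tests were chosen with earlier results of these data known. All 10 members are named; from other lists, called genes and otherwise up to 2 by smallest p; a few further transcripts and list genes were named after their values were seen. Ratios to S phase genes and counts per genome were added after the data were seen. The fits were tested on simulated data with an equal spread in KO and WT, which does not cover the unequal spread of these groups. Alternatives were other scalings, filters and tools, chromosome medians taken out, other allele count minimums, exon-union lengths, and each library left out.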

Additional observations from a re-analysis of the deposited data

How the results depend on the processing

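On gene counts 2 of the 10 genes were called. This count was 0 when low counts were not filtered (396 genes called over the whole table) and 1 when chromosome medians were taken out (884 genes). DESeq2 called 2590 genes, and without a filter 41 transcripts were called. Leaving out each library in turn gave 0 to 2 called members, 45 to 2482 called genes, 2 to 5 members and 1710 to 3822 genes called on the allelic ratio, 0 to 0 member transcripts and 0 to 137 transcripts; the 45 to 51 calls are those without a WT library, which leaves 2 libraries in that group. Uhrf1 kept its direction under all 15 alternatives, between -0.85 and -0.40 on the log2 scale, and its call under 8. Zfp57 kept its direction under all 15, between 1.31 and 2.01, and its call under 10. Without a filter, adjusted p was 0.0832 for Uhrf1 and 0.0762 for Zfp57 (edgeR).

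Signs turned only for genes that were not called. On gene counts Tet2 was at 0.0497 with chromosome medians taken out, and between -0.376 (without KO 22) and 0.107 (without KO 2) over the libraries left out; Mbd2 lay between -0.0533 (without KO 9) and 0.163 (without KO 22). On the allelic ratio Dnmt3b lay between -0.359 (without KO 2) and 0.229 (without KO 9), and Mbd2 between -0.133 (without KO 22) and 0.585 (without KO 9). Uhrf2 and Tet3 kept their allelic calls under all 9 alternatives. With gene length taken as the union of exons, Mbd2 averaged 26.4 and Uhrf2 17.4 CPM per kilobase in WT, and Dnmt3b 1.27 and Tet2 0.658, so both pairs changed places; in KO, Dnmt3b at 0.947 and Tet2 at 0.623 changed places. No paired analysis was possible because no label links a KO library to a WT library. The KO numbers 2, 9 and 22 match names of lines, and the WT numbers 1, 2 and 3 are those of replicates. Each cause was not tested.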
